A study of Mus musculus with 36 samples.

Results

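The genes described here were Saa1, Saa2, Saa3, Saa4, Orm1, Orm2, Lcn2, Hp, Apcs and Itih4, which encode acute phase proteins of the mouse liver. These 10 of the 24421 genes in each count file were taken by symbol, with no threshold on their measured values. All 10 were counted in each of the 36 livers, and all 10 passed the low-count filter in every comparison.

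Acute phase proteins are plasma proteins whose output by hepatocytes changes during inflammation, injury or infection. Interleukin-6 acts on hepatocytes through its receptor and gp130 (Il6st), JAK kinases and STAT3, while interleukin-1 and tumor necrosis factor act through NF-kB, and C/EBP factors bind the promoters of many of these genes. In steatohepatitis, serum amyloid A and lipocalin-2 are often used as readouts of hepatic inflammation.

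All mice were male C57BL/6J animals, bought at 7 weeks of age and kept for 1 week before the diets began, and all were first fed CDAHFD, a high-fat diet without choline whose protein is given as defined amino acids and which produces steatohepatitis with fibrosis, for 12 weeks. In the HFD experiment, 2 weeks of high-fat diet followed with a weekly subcutaneous dose of 4.3 mg/kg Fc (10 mice) or 5 mg/kg Fc(mML1)B3 (10 mice). In the standard diet experiment, mice received standard chow for 10 days and were injected on days 1, 4 and 7 with the same doses of Fc (9 mice) or Fc(mML1)B3 (7 mice). Fc(mML1)B3 is the Fc part of human IgG1 with a peptide that binds mouse Met, the receptor of hepatocyte growth factor (HGF), grafted into a loop of each chain, which makes it an HGF mimetic, and Fc without the peptide was the control. Every group thus carried the CDAHFD history and a human Fc protein, and none of the libraries used here came from an untreated mouse or from a mouse kept on chow throughout. The follow-up diet cannot be told apart from the experiment, the number of injections and the length of treatment.

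Each library was 1 mouse, with 14949035 to 28466853 reads assigned to genes, and no 2 libraries of a group were copies of each other. CPM, the unit of level used throughout, is a gene's read count after each library was brought to the same total of assigned reads with TMM factors. The tissue label was borne out by the markers of hepatocytes, whose 8 genes summed to between 12400 and 21500 CPM in every mouse. Of 4 adipocyte genes listed, Lep and Plin1 had medians of 0 CPM in all groups, and Adipoq in all but the Fc(mML1)B3 HFD group. Cidec had group means of 10.7 to 14.6 CPM. The 10 acute phase genes took a median of 1.1% of all reads in the Fc HFD group, 1.02% in the Fc(mML1)B3 HFD group, 0.654% in the Fc standard diet group and 0.67% in the Fc(mML1)B3 standard diet group. Because the libraries are of whole liver, fewer expressing cells and less RNA per cell cannot be told apart.

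The 4 Saa genes lie within 42317 bases of mouse chromosome 7 (mm10), where Saa3 is at chr7:46711998-46715676, Saa4 at chr7:46727999-46732543 and Saa1 at chr7:46740499-46742980, all on the minus strand, and Saa2 is at chr7:46751833-46754314 on the plus strand. Saa1 and Saa2 face away from each other with 8852 bases between them. The 250 bases before the RefSeq transcript start are printed 5′ to 3′ for 4 Saa genes, Orm2 and Lcn2, because Saa1, Saa2, Orm2 and Lcn2 were the members that differed most between the diets while Saa3 and Saa4 are their neighbors with smaller differences. Capitals mark each match to TTGCNNAA, a form of the C/EBP motif, on either strand. They span chr7:46742981-46743230 (minus strand) for Saa1, chr7:46751583-46751832 (plus) for Saa2, chr7:46715677-46715926 (minus) for Saa3, chr7:46732604-46732853 (minus) for Saa4, chr4:63362199-63362448 (plus) for Orm2 and chr2:32387740-32387989 (minus) for Lcn2.
Saa1: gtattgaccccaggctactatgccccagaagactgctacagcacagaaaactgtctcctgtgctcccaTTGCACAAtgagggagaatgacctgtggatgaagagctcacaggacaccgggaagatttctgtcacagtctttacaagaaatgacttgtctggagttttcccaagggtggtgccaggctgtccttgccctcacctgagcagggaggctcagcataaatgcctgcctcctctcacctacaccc
Saa2: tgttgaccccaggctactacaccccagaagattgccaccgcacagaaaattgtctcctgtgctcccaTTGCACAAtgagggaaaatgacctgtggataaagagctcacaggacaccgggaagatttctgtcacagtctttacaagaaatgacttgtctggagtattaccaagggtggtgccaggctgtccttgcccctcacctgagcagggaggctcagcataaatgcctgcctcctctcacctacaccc
Saa3: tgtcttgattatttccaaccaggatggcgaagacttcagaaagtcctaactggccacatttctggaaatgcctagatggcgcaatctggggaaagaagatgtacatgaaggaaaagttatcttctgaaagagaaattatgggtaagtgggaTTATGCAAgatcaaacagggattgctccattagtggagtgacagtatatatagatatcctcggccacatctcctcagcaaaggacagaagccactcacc
Saa4: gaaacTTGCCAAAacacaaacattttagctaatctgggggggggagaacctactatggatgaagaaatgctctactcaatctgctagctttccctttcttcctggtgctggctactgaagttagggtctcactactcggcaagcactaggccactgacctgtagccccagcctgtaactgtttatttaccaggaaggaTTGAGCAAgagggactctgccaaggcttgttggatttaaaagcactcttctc
Orm2: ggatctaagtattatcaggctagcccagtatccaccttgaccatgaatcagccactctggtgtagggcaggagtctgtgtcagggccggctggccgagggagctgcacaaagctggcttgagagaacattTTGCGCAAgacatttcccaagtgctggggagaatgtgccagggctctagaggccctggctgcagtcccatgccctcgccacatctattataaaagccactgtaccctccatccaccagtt
Lcn2: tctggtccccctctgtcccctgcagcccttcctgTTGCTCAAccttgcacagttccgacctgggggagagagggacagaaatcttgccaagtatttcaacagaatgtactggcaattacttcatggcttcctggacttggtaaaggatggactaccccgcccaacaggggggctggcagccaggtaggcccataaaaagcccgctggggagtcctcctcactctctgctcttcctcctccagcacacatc

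The upstream sequences of Saa1 and Saa2 were 94.8% identical over 251 aligned columns, whereas each of the other Saa pairs was 43.8% to 48.5% identical. The match TTGCACAA lies at positions -182 to -175 in Saa1 and -183 to -176 in Saa2, counted back from the start. Among the 8 members with a RefSeq upstream sequence of the files' build, 6 held the C/EBP letters, Saa4 at 2 places, against 9.56% of all 32851 upstream sequences of this length. The STAT letters TTCNNNGAA were found in Apcs (TTCTAGGAA) and Itih4 (TTCCGAGAA) and in 7.02% of all upstream sequences, and the NF-kB letters GGGANTTTC in none of the 8 members and 0.941% of all, both strands being searched. TATAAA on the sense strand was found in Orm2 alone and in 7.59% of all. A match or its absence describes the letters of these windows only. No upstream sequence was matched for Orm1 and Hp.

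Per kilobase of exon, which allows genes to be ordered by level, Hp was the highest of the 10 genes in all groups, with means between 2528 and 3494 CPM per kb. Under the HFD, Fc mice ranked Saa1 (2164 ± 1156 CPM per kb, SD, n = 10) and Saa2 (1960 ± 1290) next, ahead of Orm1 (1398 ± 438) and Itih4 (679 ± 123). Under the standard diet, Orm1 (1034 ± 393 CPM per kb in Fc mice, n = 9) and Itih4 (669 ± 183) stood above Saa1 (284 ± 242) and Saa2 (196 ± 151). Saa3 was the lowest of the 10 in all 4 groups, at 30.1 to 42.4 CPM per kb. In the Fc HFD order, Saa1 and Saa2, Saa2 and Orm1, Lcn2 and Apcs, Apcs and Orm2, and Orm2 and Saa4 each differed by less than the larger SD of the pair.

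**Figure D1:**
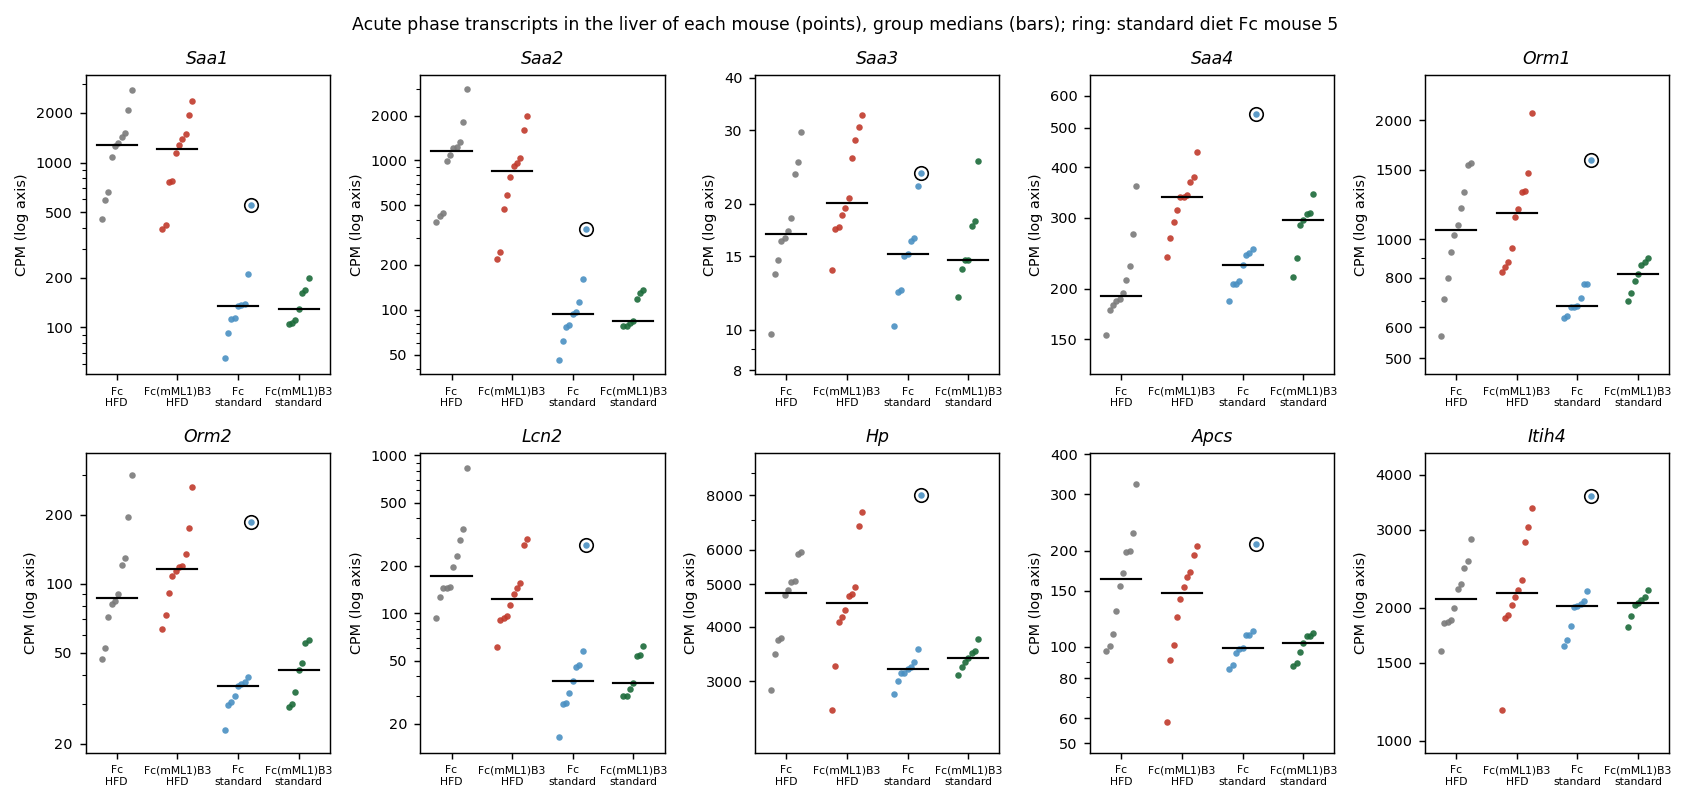
Level of each of the 10 genes in every mouse, in CPM on a log axis, by group, with a line at the group median. The ringed point is Fc standard diet mouse 5, which lies above the other 8 mice of its group for all 10 genes.

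One mouse stood apart before any comparison. Mouse 5 of the Fc standard diet group had the highest level of its group for all 10 genes, between 1.57-fold (Saa3) and 7.86-fold (Lcn2) over the median of the other 8 mice. Its Orm2 was 5.45-fold, its Saa1 4.43-fold and its Saa2 4.06-fold over that median. Its summed neutrophil markers were 86.7 CPM, against 14 to 19.1 CPM in the other 8 mice, and their part in these levels was not tested. For the 10 genes, the fold changes that rest on this group are followed by those without mouse 5.

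The largest differences among the 10 genes followed the diet. In Fc mice, Saa1, Saa2, Lcn2, Orm2, Apcs and Orm1 were lower under the standard diet than under the HFD, from 10.02-fold for Saa2 to 1.352-fold for Orm1, and none was called higher. Calls were made by the quasi-likelihood test of edgeR at a Benjamini-Hochberg adjusted p of 0.05. The 6 called genes are 60% of the 10, whereas 24.6% of the 14105 genes tested were called lower and 23.3% higher. Without mouse 5, Hp was called lower as well. With Fc(mML1)B3, 6 genes were again called lower (Saa1, Saa2, Orm2, Lcn2, Orm1 and Hp), where 17.9% of all genes tested were called lower and 20.7% higher. The median log2 fold change of the 10 genes was -0.52 in Fc mice and -0.53 in Fc(mML1)B3 mice, beside -0.05 and -0.02 over all genes tested.

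Fc(mML1)B3 against Fc, the comparison the study was built on, moved fewer of these genes. Under the HFD, Saa4 was 1.552-fold higher in Fc(mML1)B3 mice and no other member was called. This is 10% of the 10 genes, where 14.8% of the 13299 genes tested were called in either direction and 8.14% were called higher. Under the standard diet no member was called by edgeR, DESeq2 or limma-voom, and none had an unadjusted p below 0.05 in edgeR, where 16.1% of all 13570 genes tested were called. Without mouse 5 of the Fc group, Saa4 and Orm1 were called higher in Fc(mML1)B3 mice, where 15.8% of all genes were called. No member was called by edgeR, DESeq2 or limma-voom for a difference between the Fc(mML1)B3 effects under the 2 diets, 1 had an unadjusted p below 0.05 in edgeR, and 9.06% of the 14105 genes tested were called.

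**Figure D2:**
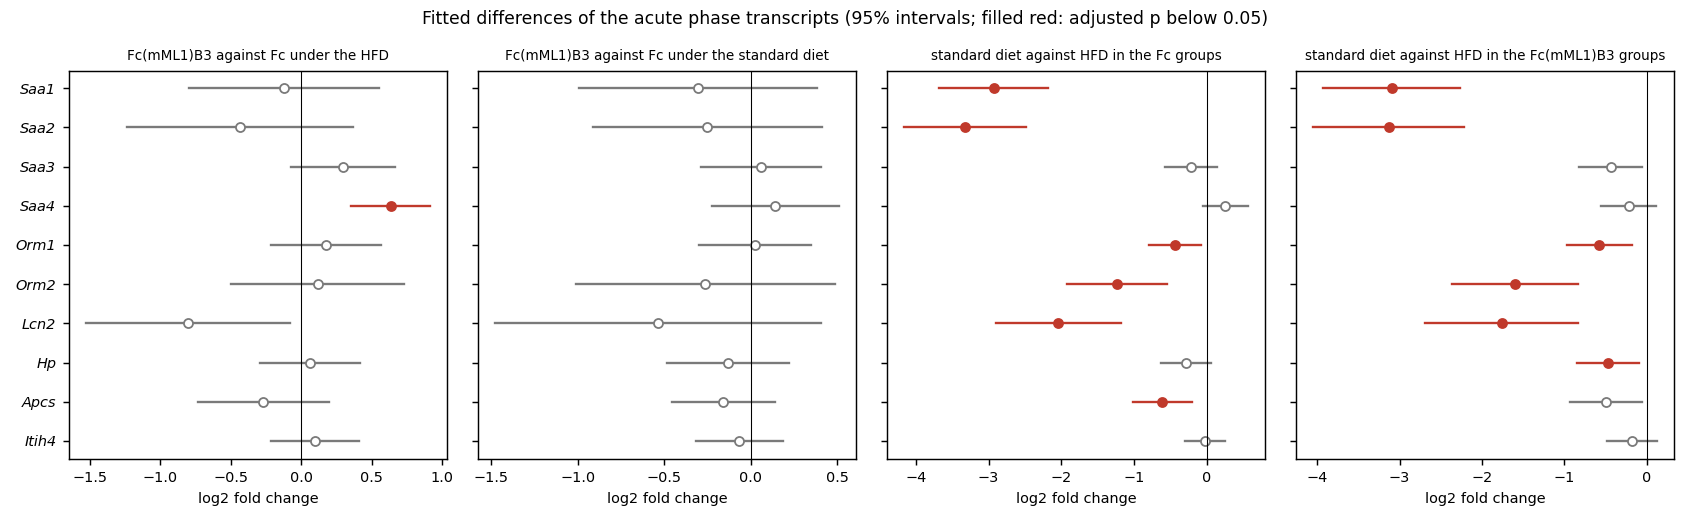
Log2 fold change of each gene with its 95% confidence interval from edgeR, for Fc(mML1)B3 against Fc under each diet and for the standard diet against the HFD under each protein. Filled red points passed an adjusted p of 0.05, and each panel has its own scale. Between proteins only Saa4 under the HFD (0.63) is filled, while 6 genes are filled for each diet comparison, with Saa1 and Saa2 farthest from 0 (-2.93 to -3.33).

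SAA1 and SAA2 are the inducible serum amyloid A proteins, small apolipoproteins carried on HDL. In Fc mice, Saa1 ran from 453 CPM (median 1280) to 2738 CPM under the HFD and from 64.7 to 549 CPM under the standard diet, where 8 of the 9 mice reached at most 209 CPM and the mean was 172 ± 147 CPM (SD). The standard diet group lay below every HFD mouse except through mouse 5. The fold change was -2.93 on the log2 scale (SE 0.37, adjusted p = 4.17e-08 by edgeR) and -3.39 without mouse 5, and the exact two-sided permutation test over mice gave p = 2.17e-05. In Fc(mML1)B3 mice, Saa1 ran from 394 CPM (median 1215) to 2366 CPM under the HFD and from 105 CPM (median 129) to 199 CPM under the standard diet. These groups did not overlap, and Saa1 was 8.554-fold lower under the standard diet (log2 -3.10, SE 0.41, adjusted p = 1.94e-07 by edgeR).

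Saa2 ran close to its neighbor. Fc mice had 389 CPM (median 1150) to 3015 CPM under the HFD and 46.1 CPM (median 93.3) to 349 CPM under the standard diet. All 9 standard diet mice, mouse 5 included, lay below all 10 HFD mice, and the difference was -3.33 (log2, SE 0.41, adjusted p = 3.32e-08 by edgeR), or -3.72 without mouse 5. The exact permutation p was 1.08e-05, the smallest that these group sizes can give. Fc(mML1)B3 mice had 219 CPM (median 847) to 1985 CPM and 77.3 CPM (median 83.6) to 136 CPM, again without overlap, with a difference of -3.13 (SE 0.45, adjusted p = 9.54e-07 by edgeR). Together the transcripts of both genes took a median of 0.245% of all reads in Fc HFD mice and 0.0224% in Fc standard diet mice.

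The spread of Saa1 and Saa2 within the HFD groups was wide. Mouse 4 of the Fc group had the highest value of both genes and mouse 8 the lowest, and in the Fc(mML1)B3 group these were also mice 4 and 8. Against this spread, Fc(mML1)B3 mice did not differ detectably from Fc mice under the HFD in Saa1 (log2 -0.13, 95% confidence interval -0.80 to 0.55, adjusted p = 0.826 by edgeR) or Saa2 (-0.43, interval -1.24 to 0.37, adjusted p = 0.48). On the standard diet the differences were -0.30 (interval -0.99 to 0.39) and -0.25 (interval -0.91 to 0.41), and leaving out mouse 5 turned both to 0.16 and 0.15. Saa1 and Saa2 are 87.3% identical over their transcripts but share no exact stretch of 100 bases, and the sum of their counts gave the same calls as each gene in the 4 group comparisons.

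The balance between Saa1 and Saa2, a quantity chosen after the values were seen, did differ. Fc HFD mice had 0.672 to 1.1 Saa2 reads per Saa1 read, with a median of 0.867. The other 3 groups had medians of 0.691 (Fc(mML1)B3 HFD), 0.704 (Fc standard diet) and 0.732 (Fc(mML1)B3 standard diet). All 10 Fc(mML1)B3 HFD mice lay below the Fc HFD median and 3 lay below every Fc HFD mouse, a log2 difference of -0.32 (two-sided permutation test over mice, p = 0.00278, Benjamini-Hochberg 0.00556 over the 12 ratio tests run). The ratio was also lower in Fc mice under the standard diet than in Fc mice under the HFD, by -0.28 (exact permutation p = 0.00169, adjusted 0.00406 over the 12) and by -0.27 without mouse 5 (exact permutation p = 0.00384), with all 9 mice below the HFD median. No difference was detected between proteins under the standard diet (exact permutation p = 0.619, and 0.889 without mouse 5) or between diets in Fc(mML1)B3 mice (p = 0.471). The sample number (S number) in the deposited file names restarts once within the Fc(mML1)B3 HFD group, which gives 2 sets of libraries. It also drops within the Fc HFD group, from 10 in mouse 4 to 1 in mouse 5, and that group was kept whole. The 4 libraries of the first Fc(mML1)B3 set differed from the Fc group by -0.21 (exact permutation p = 0.107) and the 6 of the second by -0.39 (p = 0.00212).

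**Figure D3:**
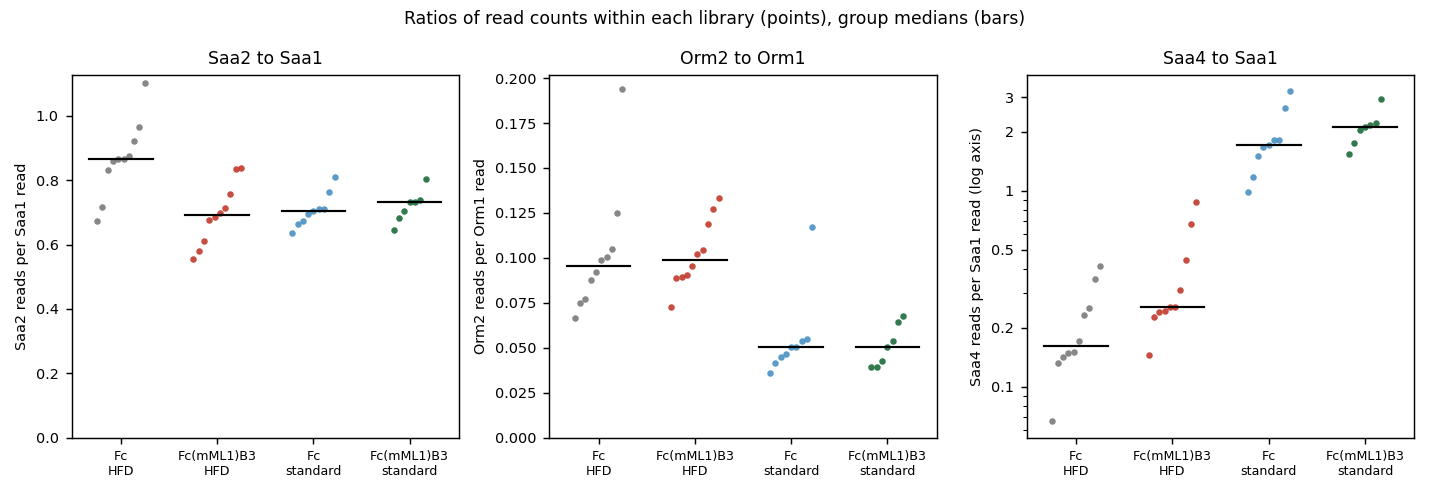
Reads of Saa2 per read of Saa1, of Orm2 per read of Orm1 and of Saa4 per read of Saa1 in every mouse, by group, with a line at the group median. The Fc HFD group has the highest median of Saa2 to Saa1 (0.867), and both HFD groups have higher medians of Orm2 to Orm1 (0.0953 and 0.0989) than the standard diet groups (0.0506 and 0.0503).

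SAA3 is an inducible serum amyloid A that mice make largely outside hepatocytes, for example in macrophages and adipocytes, and its levels here were low. Fc mice had 9.79 CPM (median 16.9) to 29.6 CPM under the HFD and 10.2 CPM (median 15.2) to 23.7 CPM under the standard diet. Fc(mML1)B3 mice had 13.9 CPM (median 20.1) to 32.6 CPM and 12.0 CPM (median 14.7) to 25.4 CPM. All groups overlapped, and none of the 5 edgeR tests called the gene. In Fc mice the diet difference was -0.21, or -0.30 without mouse 5, and between proteins under the standard diet it was 0.06, or 0.15. Its largest difference was between the diets in Fc(mML1)B3 mice (log2 -0.44, SE 0.19, adjusted p = 0.0665 by edgeR), which DESeq2 and limma-voom called, as did edgeR without Fc(mML1)B3 HFD mouse 8 or standard diet mouse 5.

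SAA4 is the constitutive serum amyloid A, regarded as little affected by the acute phase response, and its gene was the only member called for the protein given. Fc HFD mice had 154 CPM (median 192) to 358 CPM and Fc(mML1)B3 HFD mice had 240 CPM (median 338) to 436 CPM. All 10 Fc(mML1)B3 mice lay above the Fc median and 3 lay above every Fc mouse, while Fc mouse 6, with the 358 CPM, lay among the upper Fc(mML1)B3 mice. The log2 difference was 0.63 (SE 0.14, 95% confidence interval 0.35 to 0.92, adjusted p = 0.00256 by edgeR), and the permutation test over mice gave p = 0.00045. Leaving out each mouse in turn kept it between 0.59 and 0.75 and called, and each of the 2 sets by S number on its own also called it.

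Under the standard diet, Saa4 ran from 187 CPM (median 229) to 542 CPM in Fc mice, where mouse 5 held the top value, and from 214 CPM (median 295) to 343 CPM in Fc(mML1)B3 mice. With mouse 5 the difference was 0.14 (SE 0.18, adjusted p = 0.63 by edgeR). Without it the difference was 0.36 (SE 0.09, adjusted p = 0.00961 by edgeR, exact permutation p = 0.00575), and 5 of 7 Fc(mML1)B3 mice lay above all 8 remaining Fc mice. The effect of Fc(mML1)B3 on Saa4 under the standard diet minus that under the HFD was -0.48 (SE 0.23, unadjusted p = 0.043, adjusted p = 0.217 by edgeR) and -0.26 without mouse 5, so a difference between the diets was not shown.

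Saa4, not called between the diets, differed between them by 0.26 in Fc mice (SE 0.15, adjusted p = 0.167 by edgeR), by 0.04 without mouse 5, and by 0.37 without HFD Fc mouse 6, when it was called (adjusted p = 0.0378 by edgeR). It differed by -0.22 between the diets in Fc(mML1)B3 mice (SE 0.17, adjusted p = 0.307). Reads of Saa4 per read of Saa1, a ratio chosen after the values were seen, had medians of 0.161 and 0.255 in the Fc and Fc(mML1)B3 HFD groups and of 1.71 and 2.12 in the standard diet groups. Its diet difference follows from that of Saa1 and is given as a description.

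ORM1 and ORM2 are orosomucoids, or alpha-1-acid glycoproteins, plasma carriers of lipophilic drugs and steroids. Orm1 (chr4:63344566-63348162) and Orm2 (chr4:63362449-63365877) lie on the plus strand in a cluster of 3 with Orm3, the cluster spanning 21312 bases. Their transcripts are 91.0% identical, and 47 of 676 exact 100-base windows of each (6.95%) also occur in the other. A read lying wholly in such a window matches both genes and was left out, so both can lose reads. How well the other reads were told apart between the pair was not tested.

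Orm1, the more abundant, ran in Fc mice from 570 CPM (median 1058) to 1560 CPM under the HFD and from 633 CPM (median 678) to 1588 CPM under the standard diet. The groups overlapped, with 8 of 9 standard diet mice below the HFD median and mouse 5 above every HFD mouse. The difference was -0.43 (SE 0.18, adjusted p = 0.042 by edgeR, exact permutation p = 0.0539), close to the threshold, and leaving out 1 mouse at a time ended the call in 16 of 36 fits. Without mouse 5 it was -0.63 (adjusted p = 0.00155 by edgeR, exact permutation p = 0.00635). Orm1 in Fc(mML1)B3 mice ran from 826 CPM (median 1168) to 2091 CPM and from 699 CPM (median 819) to 897 CPM, a difference of -0.57 (SE 0.19, adjusted p = 0.0174 by edgeR). With only the second set of Fc(mML1)B3 HFD libraries by S number, this diet difference was not called (adjusted p = 0.136 by edgeR). Between proteins Orm1 differed by 0.18 under the HFD (adjusted p = 0.566 by edgeR). On the standard diet it was 0.02 with mouse 5 (adjusted p = 0.939 by edgeR) and 0.22 without it (SE 0.06, adjusted p = 0.0192 by edgeR, exact permutation p = 0.00715), and all 7 Fc(mML1)B3 mice lay above the Fc median.

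Orm2 showed the larger diet difference of the pair. Fc mice had 47.0 CPM (median 86.9) to 299 CPM under the HFD, with mouse 7 highest, and 22.9 CPM (median 35.8) to 186 CPM under the standard diet. All standard diet mice but mouse 5 lay below every HFD mouse, and the difference was -1.23 (SE 0.34, adjusted p = 0.00317 by edgeR), or -1.83 without mouse 5. Fc(mML1)B3 mice had 63.7 CPM (median 116) to 266 CPM and 28.9 CPM (median 42.1) to 56.7 CPM without overlap, a difference of -1.60 (SE 0.38, adjusted p = 0.000882 by edgeR). Between proteins Orm2 was not called under the HFD (0.12, adjusted p = 0.825 by edgeR) or the standard diet (-0.26, adjusted p = 0.663), where the value without mouse 5 was 0.34 (adjusted p = 0.123).

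The medians of Orm2 reads per Orm1 read were 0.0953 and 0.0989 in HFD mice and 0.0506 and 0.0503 in standard diet mice, in Fc and Fc(mML1)B3 mice. This ratio, also chosen after the values were seen, follows from the diet differences of the pair and is given as a description.

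LCN2, or lipocalin-2, binds bacterial siderophores and is made by injured hepatocytes and stored in neutrophil granules. Its gene (chr2:32384637-32387739, minus strand) had the widest range within a group as highest over lowest CPM, 16.4-fold in Fc standard diet mice. That range rests on mouse 5. In Fc HFD mice it was 8.88-fold, against 9.06-fold for Saa2 in Fc(mML1)B3 HFD mice. Fc HFD mice had 93.6 CPM (median 172) to 831 CPM, and Fc standard diet mice 16.4 CPM (median 37.2) to 270 CPM. Except for mouse 5, every standard diet mouse lay below every HFD mouse. The difference was -2.04 (SE 0.42, adjusted p = 0.000148 by edgeR), a 4.112-fold lower level, and -2.82 without mouse 5. In Fc(mML1)B3 mice, with 61.3 CPM (median 123) to 297 CPM under the HFD and 30 CPM (median 36.2) to 62.5 CPM under the standard diet, 6 of 7 standard diet mice lay below all HFD mice and the difference was -1.76 (SE 0.46, adjusted p = 0.00246 by edgeR).

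Between proteins under the HFD, 8 of 10 Fc(mML1)B3 mice had Lcn2 below the Fc median, but the difference of -0.80 (SE 0.35) had an unadjusted p of 0.0315 and an adjusted p of 0.126 by edgeR and was not called. It shrank to -0.38 without Fc mouse 7, which held the 831 CPM. With only the second set of Fc(mML1)B3 libraries by S number it was -1.35 and called (adjusted p = 0.0315 by edgeR). With only the first set it was not called. The Lcn2 median was 213.1 CPM in the first set, above the 172.2 CPM of Fc HFD mice, and 95.01 CPM in the second. Neutrophil markers, as a list of 12 genes of which 11 were in the files, summed to 91.1 CPM in Fc mouse 7 and 95.1 CPM in Fc mouse 8 against 15.5 to 27.4 CPM in the other 8 Fc HFD mice and 12.7 to 29.5 CPM in Fc(mML1)B3 HFD mice. Mouse 8, with the larger sum, had the lowest Lcn2 of its group. Of the 6 neutrophil markers tested under the HFD, 4 were lower in Fc(mML1)B3 mice (S100a8, Ngp, Csf3r and S100a9), S100a8, S100a9 and Ngp not in limma-voom, and their part in the Lcn2 values was not tested. Lcn2 under the standard diet differed between proteins by -0.54 (adjusted p = 0.461 by edgeR) with mouse 5 and by 0.25 without it (adjusted p = 0.492).

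HP, or haptoglobin, binds free hemoglobin in plasma. Hp (chr8:109575128-109579172, minus strand) had 2868 CPM (median 4784) to 5921 CPM in Fc HFD mice and 2811 CPM (median 3210) to 7990 CPM in Fc standard diet mice, where mouse 5 lay above every HFD mouse. The difference was -0.29 (SE 0.17, adjusted p = 0.162 by edgeR) with mouse 5 and -0.51 (adjusted p = 0.0032) without it. Fc(mML1)B3 mice had Hp levels of 2579 CPM (median 4527) to 7313 CPM and 3106 CPM (median 3397) to 3742 CPM, overlapping groups with a difference of -0.47 (SE 0.18, adjusted p = 0.0427 by edgeR). This call was lost in DESeq2, without the low-count filter and in 10 of the 36 fits without 1 mouse. It was also lost with only the second set of Fc(mML1)B3 HFD libraries by S number. Fc(mML1)B3 and Fc differed by 0.06 under the HFD and by -0.13 under the standard diet, with intervals of -0.29 to 0.42 and -0.49 to 0.22, and neither was called. Without mouse 5 the standard diet value was 0.10 (adjusted p = 0.25 by edgeR).

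APCS, serum amyloid P component, is a pentraxin and a main acute phase protein of the mouse. Apcs (chr1:172893961-172895054, minus strand) had 97.2 CPM (median 163) to 323 CPM in Fc HFD mice and 85.4 CPM (median 99.4) to 209 CPM in Fc standard diet mice. The groups overlapped, but 8 of 9 standard diet mice lay below the HFD median, and the difference was -0.61 (SE 0.20, adjusted p = 0.0116 by edgeR), or -0.78 without mouse 5 (adjusted p = 0.00118). In Fc(mML1)B3 mice, which had 58.5 CPM (median 148) to 207 CPM and 87.4 CPM (median 103) to 111 CPM, the difference of -0.49 (SE 0.22, adjusted p = 0.0702 by edgeR) was not called. Between proteins the differences were -0.27 (HFD) and -0.16 (standard diet), neither called, and the latter was 0.008 without mouse 5.

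ITIH4 is a heavy chain of the inter-alpha-trypsin inhibitor family. Itih4 (chr14:30886476-30901986, plus strand) had the most even group medians of the 10 genes, of 2096, 2155, 2014 and 2046 CPM in the Fc HFD, Fc(mML1)B3 HFD, Fc standard diet and Fc(mML1)B3 standard diet groups. It ran from 1593 to 2866 CPM in Fc HFD mice and from 1641 to 3584 CPM in Fc standard diet mice, where mouse 5 was again highest. Its diet differences were -0.02 in Fc mice (interval -0.30 to 0.26), -0.15 in Fc mice without mouse 5, and -0.17 in Fc(mML1)B3 mice (interval -0.48 to 0.13). Between proteins under the standard diet the difference was -0.07, or 0.07 without mouse 5. No comparison called it.

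The spread among mice of a group is given next. The coefficient of variation of the 10 genes was 18.2% to 84.9% in Fc HFD mice, 17.1% to 64.5% in Fc(mML1)B3 HFD mice and 27.4% to 127.0% in Fc standard diet mice, or 6.86% to 38.4% without mouse 5. Among Fc(mML1)B3 standard diet mice it was 6.1% to 31.7%. These spreads were described and not compared by a test.

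The 10 genes varied together from mouse to mouse. Across the 36 mice, after each group's mean log2 CPM was subtracted, all 45 pairs of members had positive correlations, with Pearson's r of 0.518 to 0.987 (median 0.776) and Spearman's rho of 0.494 to 0.987. The largest Benjamini-Hochberg adjusted permutation p over the 45 pairs was 0.0029 for r and 0.00284 for rho. Saa1 and Saa2 were the closest pair (r = 0.987, rho = 0.987, permutation p = 1e-05 for each, the smallest that the resamples can give, and r = 0.988 without the 2 mice farthest from the median of Saa1). Orm1 and Orm2 had r = 0.907, Hp and Itih4 0.905, and Orm2 and Lcn2 0.9. Saa2 and Saa4, neighbors in the same cluster, had the lowest r (0.518, rho 0.499, permutation p = 0.0029 and 0.00267), which was 0.367 without the 2 farthest mice. Within the experiments, r ran from 0.365 to 0.992 over the 20 HFD mice and from 0.512 to 0.989 over the 16 standard diet mice, mouse 5 included. Without Fc standard diet mouse 5, r over the remaining mice of all groups ran from 0.399 (Saa2 and Saa4) to 0.989 (Saa1 and Saa2). For Saa1 and Saa4 it was 0.423 without that mouse and 0.573 with it. All values of a mouse come from 1 library and share its scaling.

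**Figure D4:**
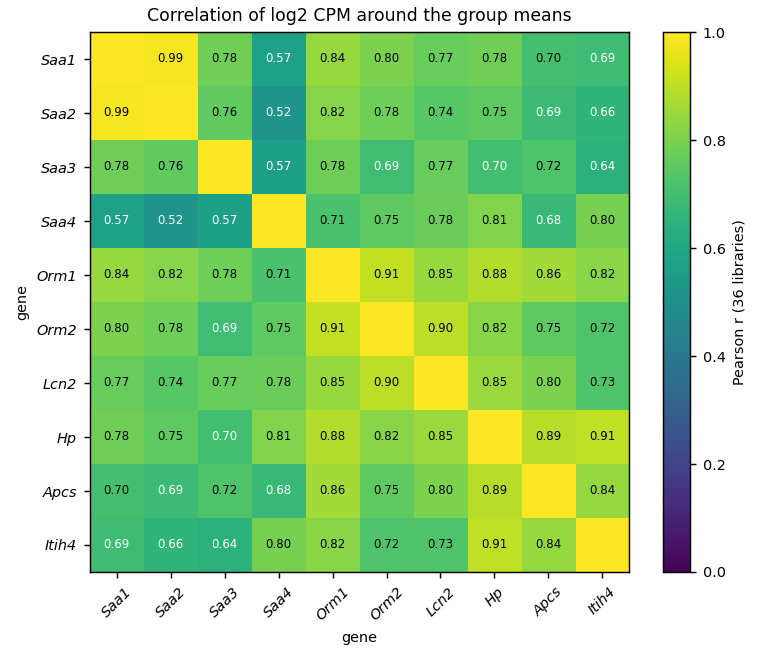
Pearson's r between the 10 genes across 36 mice, on log2 CPM with each group's mean subtracted. Yellow marks high and blue-green lower r: Saa1 with Saa2 has the highest value (0.987), and Saa4 the lowest ones, 0.518 with Saa2, 0.566 with Saa3 and 0.573 with Saa1.

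Outside the members, the genes whose log2 CPM deviations were most like theirs, among 14095 genes searched over the 36 mice, were mostly other plasma proteins. Fgl1, which encodes the hepatokine fibrinogen-like 1, was among the 3 most alike for 9 of the 10 genes, with r from 0.731 (Saa3) to 0.917 (Hp). Lrg1, a leucine-rich glycoprotein of plasma, led for Saa1 (r = 0.797) and Saa2 (0.766). The membrane protein genes Tmem176a or Tmem176b were among the 3 nearest of Saa1, Saa3, Orm2 and Lcn2. Fgl1 was not among those of Saa4, its nearest genes being Serpina3n (0.855), Itih3 (0.838) and Cfb (0.829), which encode a protease inhibitor, a heavy chain of the ITIH4 family and complement factor B. Hp was nearest to Hpx (0.927), which encodes the heme carrier hemopexin, and Itih4 to Itih3 (0.949). These likenesses are descriptions over the same libraries, Fc standard diet mouse 5 included.

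Other positive acute phase genes, a list of 32 of which 29 were tested, did not move in 1 direction with the diet. Beside the counts of this and the following lists stand the shares of all genes called in either direction, which were 47.9% between the diets in Fc mice, 38.5% between the diets in Fc(mML1)B3 mice, 14.8% between proteins in the HFD experiment and 16.1% in the standard diet experiment. In Fc mice, 9 were higher and 7 lower under the standard diet, with a median log2 fold change of 0.07 beside -0.05 for all genes. The higher ones included Fga, a fibrinogen chain (0.66, SE 0.13, adjusted p = 9.17e-05 by edgeR), Lbp, the lipopolysaccharide-binding protein (0.70, adjusted p = 0.000282), and the mannose-binding lectins Mbl1 (0.44) and Mbl2 (0.52). The lower ones included Fgl1 (-1.01, SE 0.29, adjusted p = 0.00369 by edgeR), the protease inhibitor gene Serpina3m (-0.44), Cd14, a co-receptor for lipopolysaccharide (-0.58), and Mt1, a metallothionein (-1.31). Without mouse 5 the counts were 8 higher and 10 lower. In Fc(mML1)B3 mice 1 was higher (Mbl2, 0.57) and 7 lower, led by Serpina3m (-0.81, SE 0.13, adjusted p = 1.02e-05 by edgeR), Itih3 (-0.55), Hamp, which encodes the iron hormone hepcidin (-1.07), and Cd14 (-0.62).

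Between proteins the same list gave 2 higher and 2 lower genes under the HFD, Serpina3m (0.61, SE 0.12, adjusted p = 0.0011 by edgeR) and Cfb (0.30) higher and the metallothioneins Mt1 (-1.71) and Mt2 (-1.62) lower in Fc(mML1)B3 mice, with a median of 0.12 beside -0.01 for all genes. Limma-voom did not call Mt2. Under the standard diet, the 3 fibrinogen chains Fga (-0.52, SE 0.13, adjusted p = 0.00782 by edgeR), Fgg (-0.45) and Fgb (-0.43) and Lbp (-0.47) were lower in Fc(mML1)B3 mice. These 4 were also lower without mouse 5, by 0.41, 0.34, 0.32 and 0.30 on the log2 scale, and Serpina3m was then higher by 0.34. For Fga the difference between the Fc(mML1)B3 effects under the 2 diets was called (-0.62, SE 0.19, adjusted p = 0.0373 by edgeR), but not without mouse 5 (-0.50, adjusted p = 0.0686), when Mt1 (2.14, adjusted p = 0.0152) and Mt2 (2.4, adjusted p = 0.0196) were called.

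Negative acute phase proteins are plasma proteins whose output falls in inflammation, and 10 were listed. Serpina6, which encodes corticosteroid-binding globulin, was lower in Fc(mML1)B3 mice under the HFD (-0.46, adjusted p = 0.0244 by edgeR) and higher under the standard diet (0.42, adjusted p = 0.00105), and the difference between these effects was called (0.90, SE 0.17, adjusted p = 0.000315). Rbp4, the plasma retinol carrier, was higher with Fc(mML1)B3 under the standard diet (0.20, adjusted p = 0.0133 by edgeR). Under the HFD its difference of 0.32 between proteins missed the threshold in edgeR (adjusted p = 0.0502) and was called by DESeq2 and limma-voom. Rbp4 was lower under the standard diet than under the HFD with Fc (-0.33) and with Fc(mML1)B3 (-0.44). Between the diets, 2 of the 10 were higher and 2 lower in Fc mice (1 and 2 without mouse 5) and 1 in each direction in Fc(mML1)B3 mice, with medians of -0.01 and -0.03, and Ahsg, which encodes fetuin-A, was higher with either protein (0.38 and 0.41). The median between proteins was 0.10 in the HFD experiment and 0.04 in the standard diet experiment. In the inter-alpha-trypsin inhibitor family, of 6 listed genes, edgeR and DESeq2 called none of the 5 tested between proteins under either diet, with 0 unadjusted p below 0.05 under the HFD and 1 (Itih2, which limma-voom called) under the standard diet, where Ambp was called higher without mouse 5. In Fc mice, Itih1, Itih2 and Itih5 were higher and Tnfaip6 lower (not by limma-voom) under the standard diet, and in Fc(mML1)B3 mice Itih2 and Itih5 were higher and Itih3 lower.

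Upstream of these proteins, 4 of the 11 listed cytokine genes passed the low-count filter in the comparisons between proteins and 6 in those between diets, and Il6 in none. Under the HFD, Il1rn, which encodes the interleukin-1 receptor antagonist (-0.73, adjusted p = 0.0124 by edgeR), and Il1a (-0.44, adjusted p = 0.0148) were lower in Fc(mML1)B3 mice. On the standard diet, edgeR and limma-voom called none of the 4 between proteins, with 2 unadjusted p below 0.05 in edgeR (Il1rn and Tnf), and DESeq2 called Il1rn. Between the diets, Il1a, Tnf, Il1rn and Osm were lower under the standard diet in Fc mice (-0.46, -0.67, -0.51 and -1.12) and Tnf in Fc(mML1)B3 mice (-0.71). Limma-voom did not call Osm in Fc mice, nor Tnf with either protein.

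Of 12 receptor and adaptor genes, Il22ra1, which encodes the hepatocyte receptor chain for interleukin-22, was 0.83 higher in Fc(mML1)B3 mice under the HFD (SE 0.17, adjusted p = 0.00139 by edgeR), as was Il1rap (0.35), while Tnfrsf1a was lower (-0.26). Tlr4 alone was called under the standard diet (-0.37, adjusted p = 0.0478 by edgeR), and not by limma-voom or without mouse 5. The Il22ra1 effects differed between the diets (-0.93, SE 0.23, adjusted p = 0.00752 by edgeR). Between the diets, Il6st, the shared signaling chain of the interleukin-6 family, was higher under the standard diet by 0.64 in Fc mice and 0.51 in Fc(mML1)B3 mice, and its relative Lifr by 0.98 and 0.94. In all, 4 of the 12 were higher and 1 lower in Fc mice (3 and 3 without mouse 5), and 2 higher and 3 lower (Myd88, Il10rb and Osmr, the last not by limma-voom) in Fc(mML1)B3 mice, with medians of 0.20 and -0.11.

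Among 14 kinase and transcription factor genes, 6 were higher and 3 lower under the standard diet in Fc mice, and 5 higher and 2 lower in Fc(mML1)B3 mice. Jak1 (0.37 and 0.38) and Cebpa (0.40 and 0.53) were higher with either protein, Cebpd was lower in Fc mice (-0.84, SE 0.24, adjusted p = 0.00358 by edgeR), and the NF-kB subunit genes Relb (-0.62 and -0.66) and Nfkb2 (-0.27 and -0.33) were lower with either protein. Between proteins, Nfkb2 (-0.39), Tyk2 (-0.23) and Relb (-0.49) were lower with Fc(mML1)B3 under the standard diet. Of 10 feedback and target genes of STAT3 and NF-kB, Junb was lower in Fc(mML1)B3 mice under the HFD (-0.80, adjusted p = 0.00164 by edgeR) and under the standard diet (-1.05, adjusted p = 0.000186), and Nfkbia was lower under the HFD (-0.31). Nfkbia and Icam1 were lower under the standard diet with either protein, and Socs1 in Fc(mML1)B3 mice, where limma-voom did not call Nfkbia.

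Of 9 receptors and partners of the acute phase proteins, none of the 7 tested between proteins under the HFD was called by edgeR, DESeq2 or limma-voom, 1 having an unadjusted p below 0.05 (Scarb1). Between the diets, 2 of the 9 were higher and 1 lower in Fc mice (3 and 1 without mouse 5) under the standard diet, and 3 were higher and 2 lower in Fc(mML1)B3 mice. Cd163, which encodes the macrophage receptor for haptoglobin-hemoglobin, was higher under the standard diet in Fc mice (1.67, SE 0.53, adjusted p = 0.0097 by edgeR) and Fc(mML1)B3 mice (1.41, adjusted p = 0.0298), as was Lrp1 (0.43 and 0.41), a receptor for hemopexin-heme. Slc22a17, described as a lipocalin-2 receptor, was lower (-0.75 and -0.79, the latter not by limma-voom). Scarb1, an HDL receptor that also binds serum amyloid A, was lower with Fc(mML1)B3 under the standard diet (-0.21, adjusted p = 0.0318 by edgeR), with a called difference from its effect under the HFD (-0.36, adjusted p = 0.0152), and lower between the diets in Fc(mML1)B3 mice (-0.39).

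Some markers of other liver cells were also called between the diets. Among all genes tested, 47.9% were called in either direction and 24.6% lower in Fc mice. The shares were 38.5% and 17.9% in Fc(mML1)B3 mice. Whether the marker lists differed from these shares was not tested. In Fc mice, 6 of 8 markers of monocyte-derived macrophages were lower under the standard diet, with summed levels of 589 to 1150 CPM against 781 to 1890 CPM under the HFD. Likewise 4 of 10 Kupffer cell markers, 5 of 6 stellate cell markers, 4 of 4 T cell markers and 4 of 4 B and plasma cell markers were lower. Limma-voom did not call C1qc and Marco among the Kupffer cell markers, Marco running from -1.75 to 0.30 on the log2 scale over 9 settings, nor Itgax among those of monocyte-derived macrophages, nor the B cell marker Cd79a, which was called in 6 of 9 settings. Of 9 neutrophil markers tested, 2 were lower, and 6 without mouse 5, while the other counts without it were within 1 of those given. Of 5 cholangiocyte markers, Epcam was lower, and of 5 endothelial markers, Kdr was higher. With Fc(mML1)B3, 3 monocyte-derived macrophage, 1 Kupffer cell, 4 stellate cell and 2 T cell markers, the cholangiocyte markers Sox9 and Krt19 and the neutrophil marker Retnlg were lower, and 1 B cell marker and Kdr were higher. The T cell marker Cd3e and the stellate cell marker Pdgfrb were not called there by limma-voom, and Cd79a was called in 3 of 9 settings. Of 8 hepatocyte markers, 2 were higher with either protein and none lower. Under the HFD, 3 of 4 B and plasma cell markers were lower in Fc(mML1)B3 mice and the hepatocyte marker Hnf4a was higher, and under the standard diet 3 of 8 hepatocyte markers were higher and 2 of 8 monocyte-derived macrophage markers and 2 of 6 stellate cell markers lower, as was Sox9, though not without mouse 5. The part of these cells in the acute phase values was not tested.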

How the data were processed

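Liver RNA of 36 mice was sequenced as 2 reads per fragment, 1 library per mouse, and mice were grouped by the protein and diet that the labels give. The deposited files hold raw counts per gene for mm10. Per the file headers and the study's methods, the authors trimmed reads with fastp, removed ribosomal RNA with Bowtie2 2.4.5, aligned with STAR 2.7.10a and counted with featureCounts of Subread 2.0.3. Each end was counted as a read, pairs with 1 aligned end were dropped, strand was ignored although the kit keeps it, and reads that matched several places or several genes were left out. Members of near-identical families can thus lose reads, and reads of an antisense partner cannot be told apart. None of the 10 genes overlaps another gene's exons. Assigned reads per library were 14949035 to 28466853, 15111050 to 27600939 in Fc HFD, 14949035 to 25951690 in Fc(mML1)B3 HFD, 19085473 to 25477135 in Fc standard diet and 24772468 to 28466853 in Fc(mML1)B3 standard diet mice.

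From the counts, edgeR 4.0.16 in R 4.3.3 filtered low genes (filterByExpr), scaled libraries by TMM and ran the quasi-likelihood test, with Benjamini-Hochberg adjustment over all genes tested. Fc(mML1)B3 against Fc was fitted within each experiment, and the diet contrasts and the interaction on all 36 libraries. The study's own test, DESeq2 (1.42.0), and limma-voom (limma 3.58.1) were alternatives, with other scalings, filters, equal depth, summed paralogs, the study's thresholds and leaving out each mouse. A 95% interval follows the fit's degrees of freedom. CPM are TMM-scaled, with a prior count of 0.5 before log2. Permutation tests over mice were two-sided, exact below 10 mice in a group and from 100000 resamples otherwise (SciPy 1.17.1). Upstream sequences are RefSeq's for GRCm38.p6, the build of mm10, with 8 of 10 members matched, and transcripts were compared with Biopython 1.88. The edgeR fit of each comparison was tested on simulated counts with known changes. The 10 genes, the gene lists and the tests were chosen with earlier results of these data known. The 10 genes were always named, from each list at most the 4 called genes with the smallest p per comparison, and for likeness the nearest 3 genes per member. The Saa1 to Saa2, Orm1 to Orm2 and Saa1 to Saa4 ratios were added after the values were seen, as were the fits without Fc standard diet mouse 5 in the lists and markers and by S number across diets.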

Additional observations from a re-analysis of the deposited data

Results flagged for a closer look

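In 7 of 40 combinations of gene and group, the highest mouse stood apart from the rest by Dixon's criterion, which chance passes in about 1 of 20 groups, and in all 7 it was Fc standard diet mouse 5. Its levels were 541.9 CPM for Saa4, 1588 CPM for Orm1, 185.9 CPM for Orm2, 269.8 CPM for Lcn2, 7990 CPM for Hp, 209.0 CPM for Apcs and 3584 CPM for Itih4. The next highest mice of the group had 250.9, 772.2, 39.05, 57.83, 3554, 112.0 and 2183 CPM. The 7 values come from 1 library and are not independent. Its summed Kupffer cell and macrophage markers were also the highest of the group, at 828 CPM.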

How the results depend on the processing

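The number of the 10 genes called kept within 1.5 times its value under every alternative run, except as follows. For Fc(mML1)B3 against Fc under the HFD it went from 1 to 0 at the study's thresholds (2-fold, adjusted p of 0.1) and to 2 with only the second set of Fc(mML1)B3 libraries by S number. Under the standard diet it went from 0 to 2 with only the Fc libraries whose S numbers lie above 100, a choice that also leaves out Fc mouse 5. Leaving out each mouse in turn gave 1 to 1 under the HFD, 0 to 2 under the standard diet (2 without Fc standard diet mouse 5), 0 to 0 for the interaction, 5 to 7 for the diets in Fc mice and 5 to 8 in Fc(mML1)B3 mice. No called value of the 10 genes changed sign. Saa4 under the HFD stayed between 0.55 and 0.76 on the log2 scale over the other alternatives. No paired design was found: the correlations of same-numbered mice ran from -0.58 to 0.25 over 33 pairs, 5 of them above 0.1. With mouse number as a replicate block, 1, 0, 0, 6 and 8 of the 10 genes were called in the 5 comparisons, and 731 genes were called higher and 563 lower under the HFD against 1083 and 889 without it, and 713 and 583 under the standard diet against 1162 and 1024.

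Upper-quartile scaling shifted the median of all genes to -0.13 between the diets in Fc mice and -0.11 in Fc(mML1)B3 mice, and moved the split of called genes to 2523 higher and 4795 lower (3288 and 3471 with TMM) and to 2208 and 3799 (2914 and 2520). Under the HFD the split was 865 and 1075 against 1083 and 889. Limits: diet cannot be told apart from experiment, and 10 mice a group with coefficients of variation of 65.8% and 64.5% leave the Saa2 difference between proteins under the HFD undetermined. DESeq2 replaced the Lcn2 count of Fc standard diet mouse 5 in its standard diet fit. Saa3, with at most 32.6 CPM, had the fewest reads of the 10 genes. P-values measure the spread between mice of single experiments.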
